A study of Homo sapiens with 6 samples.

Results

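Mitochondrial complex I, the NADH:ubiquinone oxidoreductase, was examined through the nuclear genes for its subunits and its dedicated assembly factors. The members were the genes whose symbol in the array annotation begins with NDUFA, NDUFB, NDUFC, NDUFS, NDUFV or NDUFAF, pseudogenes left out, and 44 of the 18132 genes on the array met this rule. They comprised 36 subunit genes and 8 assembly factor genes. Each gene was read by its brightest probe set, a group of short oligonucleotides designed against a stretch of transcript, among the probe sets annotated to that gene alone. The cells were MDA-MB-231, a human metastatic breast cancer line, made to express stably from a lentivirus either a negative control (NC, 3 arrays) or CTCF (CTCF-OE, 3 arrays), a DNA-binding protein of insulators and chromatin loop anchors. All 6 samples shared the same parental line and medium, and 6 PrimeView arrays were hybridized with their RNA. The transgene held the coding sequence of CTCF, and the sources used here do not say whether the stable cells were clones or whether the 3 samples of a group came from separate cultures. The p-values therefore rest on variation among these 6 arrays alone, and part of it may be technical.

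Complex I is the largest enzyme of the respiratory chain. It takes electrons from NADH and passes them along flavin and iron-sulfur centres to ubiquinone, while its membrane arm pumps protons out of the mitochondrial matrix. The enzyme is built from modules: the N module holds the NADH site, the Q module holds the ubiquinone site, and the proximal and distal membrane arms carry the proton pumps. The membrane core is encoded by mitochondrial DNA. The members are nuclear genes, whose proteins are imported into the mitochondrion. Assembly factors insert clusters, modify subunits or hold intermediates and are not part of the finished enzyme. In breast cancer cells, as in other cultured cells, complex I is known for supporting NAD+ regeneration and aspartate synthesis besides ATP production.

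The targeted gene was inspected first. The probe set of CTCF read 463, 442 and 489 under NC against 399, 388 and 399 under CTCF-OE. These values were lower under the CTCF-OE label (log2 fold change -0.23, SE 0.045) and had an adjusted p of 0.0575 from limma, so this probe set gave no rise that would check the label. Its place relative to the coding sequence is not given in the sources used here, and higher and lower are used throughout for CTCF-OE relative to NC, as labelled. The array medians lay between 83.3 and 84.5 intensity units. Of 14 cell type markers 0 passed limma's test and 0 had an unadjusted p under 0.05. VIM, CD44, CAV1, AXL and MSN of mesenchymal-like breast cancer cells all stood at or above the 97.7th percentile of genes by mean intensity, whereas PTPRC of leukocytes, PGR and CDH1 stood at the 1.64th, 3.57th and 12.9th. Of the other epithelial or luminal markers listed as low, KRT19 stood at the 97.7th percentile, EPCAM at the 74.7th, GATA3 at the 68.9th and ESR1 at the 38.7th. PECAM1 of endothelium stood at the 49.6th and COL1A1 of fibroblasts at the 30.9th, well above PTPRC. In bulk RNA, fewer cells with a transcript and less of it per cell cannot be told apart.

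The complex I transcripts differed little between the groups. A single member, NDUFA7, changed at an adjusted p under 0.05 in limma's fit over all genes, and it fell by 12.3%. Among all genes 2.13% were called, 1.4% lower and 0.734% higher, so 1 call in 44 members was near the background. None of the members (0 of 44) also passed the 1.3-fold minimum used in the study, which 0.546% of all genes passed. The differences of the other 43 members ran from -0.10 for NDUFAF7 (-0.05 without NC replicate 3) to 0.16 for NDUFAF8 on the log2 scale. The 95% interval of the difference lay inside 1.3-fold in either direction for all 44 members, and the most extreme bounds were -0.27 and 0.24. Over all genes 93.9% of the intervals lay inside that limit, and 97.6% over the genes within the members' range of mean intensity. The standard errors of the members ranged from 0.031 to 0.054.

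**Figure D1:**
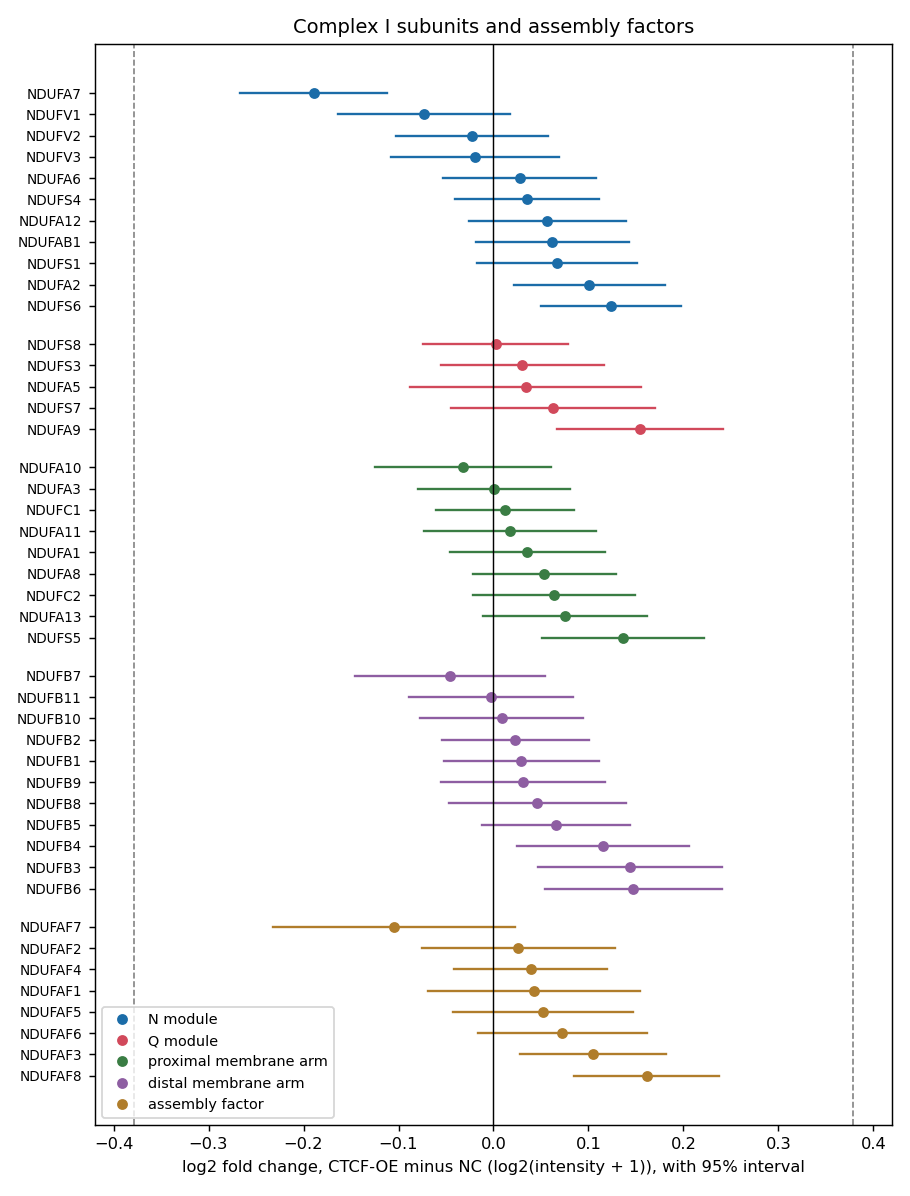
Log2 fold change (CTCF-OE minus NC, on log2(intensity + 1)) of each of the 44 members, as a point with its 95% interval from limma, coloured by module. The dashed lines mark 1.3-fold in either direction; all 44 intervals lie between them, and NDUFA7 has the lowest point, at -0.19.

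The members' differences lay mostly on the positive side, by small amounts. Their median log2 fold change was 0.037, against 0.00021 for all genes, and 36 of 44 were above 0 (81.8%, against 50.1% of all genes). In 18 members all 3 CTCF-OE values lay above all 3 NC values, where 11.4% of all genes did so, and in 3 members (NDUFA7, NDUFAF7 and NDUFV1) they all lay below, where the background was 13.3%; either way it was 21 members, against 24.7%. Since bright probe sets vary less, the background was also taken over the 7239 genes within the members' own range of mean intensity, a choice made after the data were seen. Of these 3.51% were called, 17.4% were entirely higher, 21% entirely lower, and 48.7% had a difference above 0. The positive side was not particular to complex I. Of the 58 genes listed for complexes II to V, 40 were above 0 (69%), 13 entirely higher (22.4%) and 4 entirely lower (6.9%). The share above 0 was 85.7% in complex II, 66.7% in complex III, 57.1% in complex IV and 77.8% in ATP synthase. These lists mix subunits with assembly factors such as SDHAF1, UQCC1, SCO1 and ATPAF1, and their subunits were not counted alone. In complex IV, COX4I2 and COX7A1 were dim, at the 27.9th and 16.6th percentile of genes by mean intensity. For complex I the subunits alone gave 80.6% and the assembly factors 87.5%. Shares of unlike lists are therefore no measure of a difference between the complexes. An unadjusted p under 0.05 was found for 9 members on the higher side (background 7.93%) and 1 on the lower side (background 9.29%). These counts are descriptions, because the members share arrays and were not tested as a set. The choice of variance model bore on them: when limma's prior variance followed intensity, 10 members were called, NDUFA7 lower and NDUFA2, NDUFA9, NDUFAF3, NDUFAF8, NDUFB3, NDUFB4, NDUFB6, NDUFS5 and NDUFS6 higher, at a background of 7.99% of all genes. Higher calls alone made up 3.47% of all genes and 6.95% of those in the members' range of intensity.

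**Figure D2:**
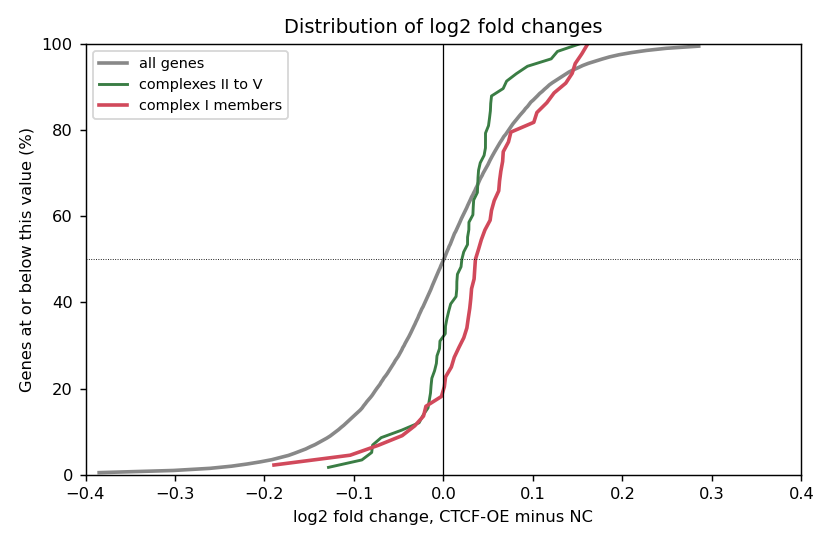
Cumulative percentage of genes (y axis) at or below each log2 fold change, CTCF-OE minus NC (x axis), for all 18132 genes, the 44 complex I members and the 58 genes listed for complexes II to V, assembly factors included. The median is 0.037 for the complex I members, 0.022 for complexes II to V and 0.00021 for all genes.

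The same small offset was seen array by array. Relative to each gene's mean over the 6 arrays, the median member stood at -0.04, -0.02 and -0.01 on the log2 scale in the NC arrays and at 0.03, 0.01 and 0.02 in the CTCF-OE arrays. All 3 arrays of a group thus lay on the same side. The control RNAs added to the samples (45 probe sets) had a median difference of -0.02 in the opposite direction, with 14 of 45 above 0. With the arrays scaled on these control RNAs, the members' median difference was 0.067 and that of all genes 0.0295. Beyond this scaling, their part in the members' offset was not tested. The spread within a group was itself unequal, with a median SD of 0.035 on the log2 scale over the members in the NC arrays and 0.02 in the CTCF-OE arrays, and the NC spread was the larger in 36 of 44 members (63.8% of all genes).

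NDUFA7, a small accessory subunit of the matrix arm, was the only member called. It read 865, 882 and 886 under NC against 759, 780 and 771 under CTCF-OE. The lowest NC value was therefore above the highest CTCF-OE value by more than the whole range within either group. The log2 fold change was -0.19 (SE 0.032, 95% interval -0.27 to -0.11) with an adjusted p of 0.0409 from limma; the exact permutation test gave 0.1, the smallest p that 3 arrays against 3 allow. A single probe set reads this gene, so no other probe set could be compared. The call was lost under 8 of 16 alternatives, among them each of the 6 fits without an array (adjusted p 0.0966 to 0.164), while the log2 difference stayed between -0.20 and -0.16 in all 16 and the adjusted p ranged from 0.000724 to 0.164. In limma's fit over all 49293 probe sets 2.08% were called. Of the members' 92 probe sets 0 were called, and NDUFA7 had the lowest adjusted p, 0.0501. An unadjusted p under 0.05 was found for 18 of the 92, 17 of them on the higher side. The 92 include several probe sets of the same genes, and the share over all probe sets is not given here. By gene that share was 17.2% of all genes (7.93% on the higher side). In the members' range of intensity it was 23.5% (10.3% on the higher side).

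The start region of NDUFA7 is shown for context, with those of NDUFS6 and NDUFAF8, picked from the higher members because each holds a motif; NDUFA9, NDUFB6 and NDUFB3 hold none of those searched. A RefSeq start (GRCh38.p14) was found for 39 of 44 members, and the 250 bases before it were searched on both strands for 3 short motifs of factors known from respiratory chain promoters or from the design: NRF1 (GCATGCGC), the ETS family (CCGGAAG) and the core of the CTCF consensus. NRF1 and the ETS protein GABP are known activators of nuclear genes for respiration. The NRF1 motif occurred in 5 of 39 members (12.8%, against 3.22% of all 27305 genes with a window and 4.34% of the 15843 coding genes): NDUFA5, NDUFA6, NDUFB4, NDUFS6 and NDUFS7. The ETS motif occurred in 7 (17.9%, against 10.2% of all genes and 14% of coding genes) and the CTCF motif in 5 (12.8%, against 10.8% and 13.9%): NDUFA3, NDUFAF7, NDUFS1, NDUFV1 and NDUFV3. The 5 members with the CTCF motif had log2 fold changes of 0.00096, -0.10, 0.07, -0.07 and -0.02, none of them called. Capitals below mark a motif: the NRF1 motif on the minus strand begins 46 bases before the start of NDUFS6, the ETS motif begins 9 bases before a start of NDUFAF8, and the NDUFA7 window holds none of the 3. A match is a run of letters and no evidence of binding.
NDUFA7, chr19:8321376-8321625, minus strand: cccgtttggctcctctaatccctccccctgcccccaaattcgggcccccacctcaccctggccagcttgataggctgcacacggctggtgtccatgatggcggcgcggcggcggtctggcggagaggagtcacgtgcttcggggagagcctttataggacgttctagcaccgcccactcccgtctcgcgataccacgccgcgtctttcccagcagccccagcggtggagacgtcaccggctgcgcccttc
NDUFS6, chr5:1801157-1801406, plus strand: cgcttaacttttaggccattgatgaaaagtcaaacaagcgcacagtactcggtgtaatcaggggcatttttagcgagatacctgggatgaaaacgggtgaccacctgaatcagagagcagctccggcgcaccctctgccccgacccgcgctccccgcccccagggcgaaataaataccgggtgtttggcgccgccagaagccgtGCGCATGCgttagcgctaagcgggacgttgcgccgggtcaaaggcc
NDUFAF8, chr17:81239068-81239317, plus strand: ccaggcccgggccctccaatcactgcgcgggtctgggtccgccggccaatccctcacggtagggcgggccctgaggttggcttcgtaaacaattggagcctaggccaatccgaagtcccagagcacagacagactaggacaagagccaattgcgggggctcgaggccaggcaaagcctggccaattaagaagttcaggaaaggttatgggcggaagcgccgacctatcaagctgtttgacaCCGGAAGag

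In the N module, which oxidizes NADH, 7 of 11 genes had a difference above 0 and 4 below, with a median log2 fold change of 0.035. The module holds NDUFA7, described above, and so had 1 call, on the lower side. NDUFV1, which carries the flavin and the NADH site, read 810, 830 and 777 under NC against 753, 775 and 767 under CTCF-OE. The groups were only just apart, and the difference was -0.07 (SE 0.038, adjusted p = 0.383 from limma). Its partner NDUFV2, an iron-sulfur subunit, differed by -0.02 (SE 0.034, adjusted p = 0.790 from limma). NDUFS1, the largest subunit of the module and a carrier of several iron-sulfur clusters, read 660, 648 and 650 against 675, 671 and 706. All 3 CTCF-OE values were higher, by 0.07 on the log2 scale (SE 0.035, adjusted p = 0.394 from limma). Another probe set of the gene went the other way, with 563, 569 and 596 against 550, 558 and 552 (-0.06, adjusted p = 0.510 from limma's probe set fit), and the remaining 3 gave 0.17, 0.05 and 0.03. NDUFS6, a zinc-binding subunit that joins late in assembly, read 2176, 2197 and 2148 against 2372, 2371 and 2362. Its groups were well apart (0.12, SE 0.031), yet the adjusted p was 0.107 in limma. NDUFA2, a subunit with a thioredoxin-like fold, read 1190, 1241 and 1230 against 1309, 1312 and 1305, again without overlap (0.10, adjusted p = 0.194 from limma). The other accessory genes NDUFV3, NDUFA6, NDUFS4, NDUFA12 and NDUFAB1, the last the mitochondrial acyl carrier protein, lay between -0.02 and 0.06.

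The Q module, where electrons reach ubiquinone, had 5 measured genes, all with a difference above 0 (median 0.034) and 0 called. NDUFA9, an accessory subunit that binds NADPH near the membrane junction, had the highest value. It read 803, 780 and 794 under NC against 858, 909 and 880 under CTCF-OE. The groups did not overlap, and the log2 fold change was 0.15 (SE 0.037, 95% interval 0.07 to 0.24, adjusted p = 0.093 from limma). The core subunits were nearly level. NDUFS7, which holds the last iron-sulfur cluster before ubiquinone, differed by 0.06 (SE 0.045), NDUFS3, a structural core subunit, by 0.03 (SE 0.036) and NDUFS8, an iron-sulfur subunit, by 0.0023 (SE 0.032). Their adjusted p-values from limma were 0.542, 0.722 and 0.980. NDUFA5 had the widest interval among the subunits, -0.09 to 0.16, since a single NC array read 994 beside 889 and 892.

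In the proximal membrane arm, next to the ubiquinone site, 8 of 9 genes had a difference above 0 and 0 were called (median 0.036). NDUFS5, a cysteine-rich subunit on the intermembrane side, read 3033, 3014 and 3171 under NC against 3423, 3344 and 3365 under CTCF-OE. All 3 were higher, by 0.14 on the log2 scale (SE 0.036, 95% interval 0.05 to 0.22, adjusted p = 0.118 from limma). NDUFA13, also known as GRIM-19, differed by 0.08 and NDUFC2 by 0.06, in both without overlap and without a call. NDUFA8, another cysteine-rich subunit, differed by 0.05. NDUFA1, NDUFA3, NDUFA11 and NDUFC1 lay between 0.00096 and 0.04, with overlapping groups. NDUFA10, related to nucleoside kinases, was the only one below 0, at -0.03 (SE 0.039, adjusted p = 0.727 from limma).

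The distal membrane arm, made up here of the 11 NDUFB genes, had 9 differences above 0, 2 below and 0 calls (median 0.031). NDUFB6 read 2251, 2256 and 2354 under NC against 2618, 2514 and 2467 under CTCF-OE, and NDUFB3 read 3893, 3825 and 4140 against 4322, 4373 and 4398. Both are small single-span membrane subunits, and in both the groups were apart. Their log2 fold changes were 0.15 (SE 0.039) and 0.14 (SE 0.041), with adjusted p-values of 0.123 and 0.139 from limma. The other probe set of NDUFB6 gave 0.13, and the other probe sets of NDUFB3 gave 0.16 and 0.14. NDUFB4 read 2084, 2066 and 2189 against 2245, 2335 and 2285, which was 0.12 higher (adjusted p = 0.195 from limma). At the other end, NDUFB7, a cysteine-rich subunit, read 1066, 1160 and 1114 against 1097, 1058 and 1079. These groups overlapped, at -0.05 (SE 0.042, adjusted p = 0.634 from limma). NDUFB1, NDUFB2, NDUFB5, NDUFB8, NDUFB9, NDUFB10 and NDUFB11 lay between -0.0023 and 0.07.

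**Figure D3:**
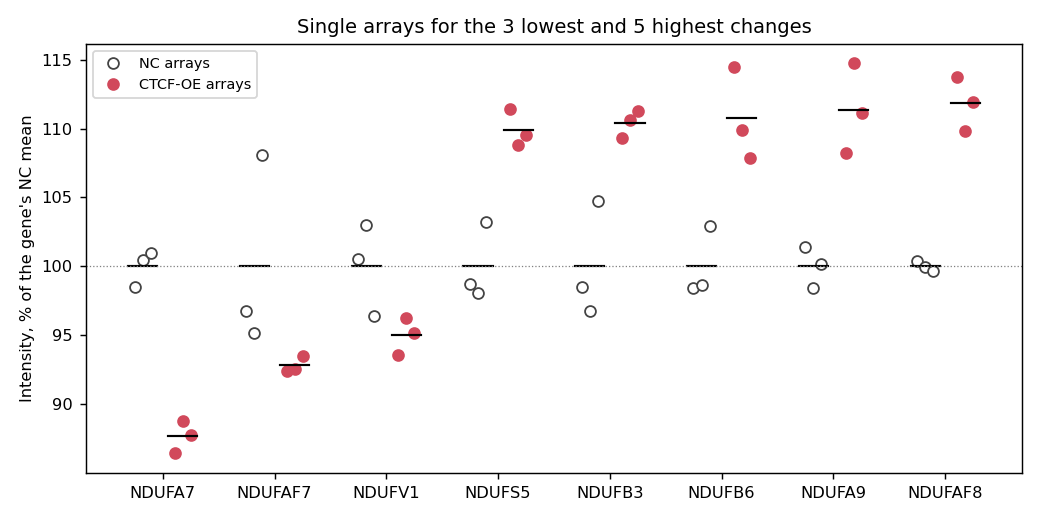
Intensity of single arrays as a percentage of each gene's NC mean (y axis), for the 3 members with the lowest and the 5 with the highest log2 fold change; open points are NC arrays, filled points CTCF-OE arrays and bars group means. The groups do not overlap in any of the 8 genes, which were picked by their difference.

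The 8 assembly factors had the highest module median, 0.047, with 7 differences above 0 and 0 calls. NDUFAF8, which works with the hydroxylase NDUFAF5, had the highest value of all members. It read 1027, 1023 and 1019 under NC against 1163, 1124 and 1145 under CTCF-OE. The NC arrays were nearly identical, and every CTCF-OE array lay above them. The log2 fold change was 0.16 (SE 0.032, 95% interval 0.08 to 0.24) with an adjusted p of 0.0616 from limma, and the second probe set gave 0.12. NDUFAF3, which joins NDUFAF4 on the early Q module, read 1240, 1246 and 1276 against 1341, 1340 and 1363 (0.10, adjusted p = 0.170 from limma), while NDUFAF4 itself differed by 0.04. NDUFAF7, an arginine methyltransferase of a core subunit, read 202, 198 and 225 against 193, 193 and 195. Its difference of -0.10 (SE 0.054) had an adjusted p of 0.379 from limma, with 1 NC array well above the other two; without that array it was -0.05. The other probe sets of the gene gave 0.12 and 0.04. NDUFAF1, part of the complex that assembles the membrane arm, NDUFAF2, a relative of NDUFA12, NDUFAF5 and NDUFAF6 differed by 0.04, 0.03, 0.05 and 0.07, with adjusted p-values from limma of 0.700, 0.807, 0.565 and 0.378.

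The probe sets of 1 gene gave mostly the same sign. Of 44 members 26 were read by several probe sets, and 24 had another probe set outside the dimmest 20%. In 18 of these 24 the median of the others had the sign of the brightest. With 36 of 44 members above 0, equal signs would be frequent in any case, so this count is no measure of agreement. The widest range within a gene was 0.23, for NDUFS1, and 0 members had probe sets more than 0.3 apart. The brightest probe set of 12 members carried a suffix that Affymetrix gives to probes with matches in several transcripts, so signal from related sequences may enter their values. They were NDUFA5, NDUFA13, NDUFAF2, NDUFAF4, NDUFAF8, NDUFB3, NDUFB4, NDUFB5, NDUFB8, NDUFB11, NDUFS5 and NDUFV2. Of these, NDUFAF8, NDUFB3 and NDUFS5 are among the 5 highest members.

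**Figure D4:**
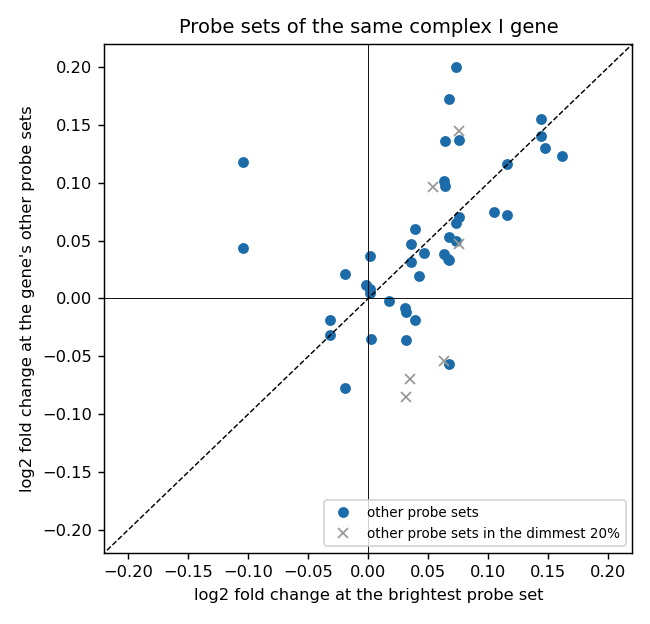
Log2 fold change of a gene's brightest probe set (x axis) against that of its other probe sets (y axis), CTCF-OE minus NC, for the 26 members with several; crosses are probe sets in the dimmest 20%. NDUFAF7 stands to the left, with -0.10 at the brightest and 0.12 and 0.04 at the others.

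The genes around complex I were read in the same fit. The lists of complexes II to IV and of ATP synthase include assembly factors of these complexes. Of 83 genes in 6 lists (complexes II, III and IV, ATP synthase, complex I assembly factors without an NDUF name, and regulators of mitochondrial biogenesis) 0 passed limma's adjusted p, at the background of 2.13%, and 6 had an unadjusted p under 0.05 (7.23%, against 17.2% of all genes), 4 higher and 2 lower. The methods' t-test likewise called 0 after Benjamini-Hochberg adjustment. The medians were 0.039 for complex II (7 genes), 0.0099 for complex III (12), 0.008 for complex IV (21), 0.027 for ATP synthase (18), 0.018 for the other assembly factors (12) and 0.017 for the regulators (13). The following genes were chosen after their values were seen. PPARGC1A, the coactivator PGC-1alpha that drives mitochondrial biogenesis, read 119, 121 and 110 under NC against 93.9, 82.6 and 95.6 under CTCF-OE. Its groups were apart, at -0.36 (SE 0.067, adjusted p = 0.0511 from limma). The related coactivator PPRC1 differed by -0.17 (adjusted p = 0.0845 from limma). On the other side, PPARA, a nuclear receptor of fatty acid oxidation, differed by 0.23 (adjusted p = 0.117 from limma) and TFAM, which packages mitochondrial DNA and serves its transcription, by 0.10 (adjusted p = 0.313 from limma), both without overlap. ATP5PB, the b subunit of ATP synthase, differed by 0.15 (adjusted p = 0.0925 from limma). NRF1, the factor named for the promoter motif above, differed by 0.08 (SE 0.036, adjusted p = 0.325 from limma).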

How the data were processed

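RNA of 6 samples (3 NC, 3 CTCF-OE) had been labelled and hybridized to PrimeView arrays by the authors. The deposited values are probe set intensities on a linear scale with nearly equal array medians; the software, background correction and normalization are not given in the sources used here. Groups and replicate numbers were taken from the sample labels.

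The 102 control probe sets were set aside and 49293 probe sets remained. Of these 44988 had 1 gene symbol in the platform annotation, 1832 had several and 2473 had none listed; a few genes of the family and of the lists are not analysed here. Each of 18132 genes was represented by its brightest single-symbol probe set (mean of all 6 arrays). Values were taken as log2(intensity + 1), and limma 3.58.1 (R 4.3.3) fitted CTCF-OE minus NC (prior degrees of freedom 2.79), with Benjamini-Hochberg adjustment over all genes and a threshold of 0.05. The log2 differences are on this scale and slightly understate changes of dim probe sets. With intensities, precision rests on the spread between 3 arrays per group. The procedure was tested on simulated data. Named were the core subunits, called members, the 5 highest and 5 lowest differences and the assembly factors; other genes were named after their values were seen. The members and lists were chosen with earlier results of these data known. Alternatives changed the filter on dim genes, pseudocount, scaling, variance model, test, replicate block, probe set per gene, threshold and arrays. Promoter windows came from RefSeq (GRCh38.p14), read with Python 3.11.15 and pandas 2.3.3, and figures were drawn with matplotlib 3.10.9.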

Additional observations from a re-analysis of the deposited data

How the results depend on the processing

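In place of 1 member, the count of calls was 2 without the dimmest 20% of genes (background 4.61%) and 3 at a pseudocount of 16 (4.58%). It was 10 with an intensity trend in the variances (7.99%) and 3 at an adjusted p under 0.1 (4.85%). With the 1.3-fold minimum it was 0 (0.546%), as it was when any probe set of a gene could make the call (3.67%). The methods' t-test called 14 members unadjusted (background 16.5%) and 3 after Benjamini-Hochberg adjustment (1.49%). Without 1 array the count was 0 in all 6 fits (0 to 0), in which 67 to 170 of all genes were called. The count was 1 under quantile normalization (background 2.3%), array centring (2.07%), robust variances (1.92%) and the mean over probe sets (3.43%). It was also 1 under scaling on the added control RNAs (2.19%), where the call passed from NDUFA7 to NDUFAF8 (higher). That scaling moved the median of the members to 0.067 and that of all genes to 0.0295. Without 1 array the members' median ran from 0.029 to 0.047. In the 6 other lists, with 83 genes, the count of calls went from 0 to 1 under quantile normalization (background 2.3%) and 1 under array centring (2.07%). It was 3 at an adjusted p under 0.1 (4.85%) and 20 by the unadjusted t-test (16.5%).

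With the replicate number as a replicate block the count of members called was 0, as it was in the probe set fit and in the other lists, and 54 genes were called in all instead of 386. The replicate numbers were not treated as pairing, since same-numbered arrays correlated at only 0.012, 0.0054 and 0.0094 after the group means were removed.

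Of 336 combinations of a named member and an alternative, 311 kept direction and side of the threshold, 8 lost the call (all NDUFA7), 11 gained a call and 6 changed sign, among them NDUFAF7, which had stood at -0.10. NDUFV2 was 0.0070 under the control RNA scaling, NDUFS8 -0.017 and NDUFAF7 0.019 with the mean over probe sets, NDUFAF2 -0.00039 without NC replicate 2, and NDUFS8 -0.011 without NC replicate 3 and -0.00051 without CTCF-OE replicate 2; over the 6 fits without an array NDUFAF2 reached 0.061 at the most. The cause was not tested. An alternative that leaves out a pair of genes related to the family was not run, because they are not analysed here.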

Other observations

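The mitochondrial DNA encodes the membrane core of complex I, and the naming rule does not take in its genes. Only ND1 and ND4 were looked up, and both have a probe set on the array. ND1 read 10132, 10338 and 10346 under NC against 9858, 9912 and 9983 under CTCF-OE, without overlap. Its log2 difference was -0.05 (SE 0.031, adjusted p = 0.472 from limma). ND4 read 19903, 19312 and 19593 against 19425, 19035 and 18916, with overlapping groups, at -0.04 (SE 0.033, adjusted p = 0.639 from limma). By mean intensity ND1 stood at the 99.6th percentile of genes and ND4 at the 100th, brighter than every member. Both probe sets carry the suffix for matches in several transcripts. Whether differences are read in full at such intensities was not tested. The median of the 36 nuclear subunit genes was 0.035. Whether the mitochondrial and nuclear genes differed from each other was not tested.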
